A study of Mus musculus with 2 samples.

Results

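C1qa, C1qb and C1qc encode the A, B and C chains of C1q, and C3ar1 encodes the receptor for the complement fragment C3a. These 4 genes were chosen by name from the 2000 genes of a deposited table of scaled single-cell expression values, and all 4 were measured. They are described here across the cell types of whole pancreatic tumors and across 2 libraries. C1q is the recognition part of the classical complement pathway: it binds antibody complexes and dying cells, and with the proteases C1r and C1s it starts the cascade that cleaves C3. The C3a released by that cleavage acts on C3aR, a G protein-coupled receptor of myeloid cells. Unlike most complement proteins, which come largely from the liver, C1q is made mainly by macrophages and some dendritic cells, and C1q is widely used as a marker of tissue and tumor macrophages.

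The tumors grew from MT4, an organoid line from the KPC mouse model of pancreatic adenocarcinoma, placed in the pancreas of C57/BL6 mice and collected at day 14. The first library came from Ahr fl/fl mice, whose aryl hydrocarbon receptor gene is floxed but intact, and the second from Ahr cKO mice, in which the floxed alleles were combined with LysM-Cre. This Cre is driven by the lysozyme 2 promoter of myeloid cells, so the deletion does not reach the implanted tumor cells or the lymphocytes. Each library pooled digested tumors of 3 mice, and live cells negative for DAPI were captured with the 10X Genomics system, which gave 5196 fl/fl and 4577 cKO cells. With 1 library per genotype no difference between genotypes can be tested, mice cannot be told apart within a pool, and every SD below is a spread over cells and not between animals.

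The deposited values are scaled per gene, so a value is a distance from that gene's mean in units of its SD, capped at 10. Values of different genes are therefore not levels on a common scale. For each member the fl/fl cells had a shared lowest value, held by 86.5% of cells for C1qa, 83.3% for C1qb, 88.0% for C1qc and 91.0% for C3ar1, and this was taken as the zero level of the gene. In the library labelled Ahr cKO only 4.57% of cells had that value for C1qa, 6.60% for C1qb, 28.1% for C1qc and 53.0% for C3ar1, and between 20.6% and 29.4% lay below it. The cKO values had thus been moved between counting and deposit, and shares of cells above zero are given for the fl/fl library only. The number of molecules per cell is unknown, and the median over fl/fl cells was 108 genes above zero. Ahr itself was not lower in Macrophage-like cells of the library labelled Ahr cKO, with a mean of 0.243 against 0.0986 in the fl/fl library. The floxed exon and the part of the transcript that was counted are not given in the sources used here, so that value does not check the label.

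Cells of both libraries were grouped by clustering without the 4 genes, and groups were named from marker lists that also left them out. Before any result, 656 cell barcodes were found in both libraries, 12.6% of fl/fl cells and 14.3% of cKO cells. Of these pairs, 95.9% fell in the same class, against 45.6% of pairs made from different shared barcodes. The median correlation between the 2 cells of a barcode over all genes was 0.431. Between cells of different shared barcodes, often of different classes, it was 0.0722. The shared barcodes were concentrated in 2 groups. They made up 362 of 392 fl/fl and 367 of 371 cKO cells of a cluster led by Vim, Ccl2 and Cd14, called the Ccl2/Cd14 cluster here because it stayed unnamed. They also made up 235 of 402 fl/fl and 231 of 357 cKO Monocyte-like cells. Only 4 of 533 fl/fl and 4 of 358 cKO Macrophage-like cells had one.

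**Figure D1:**
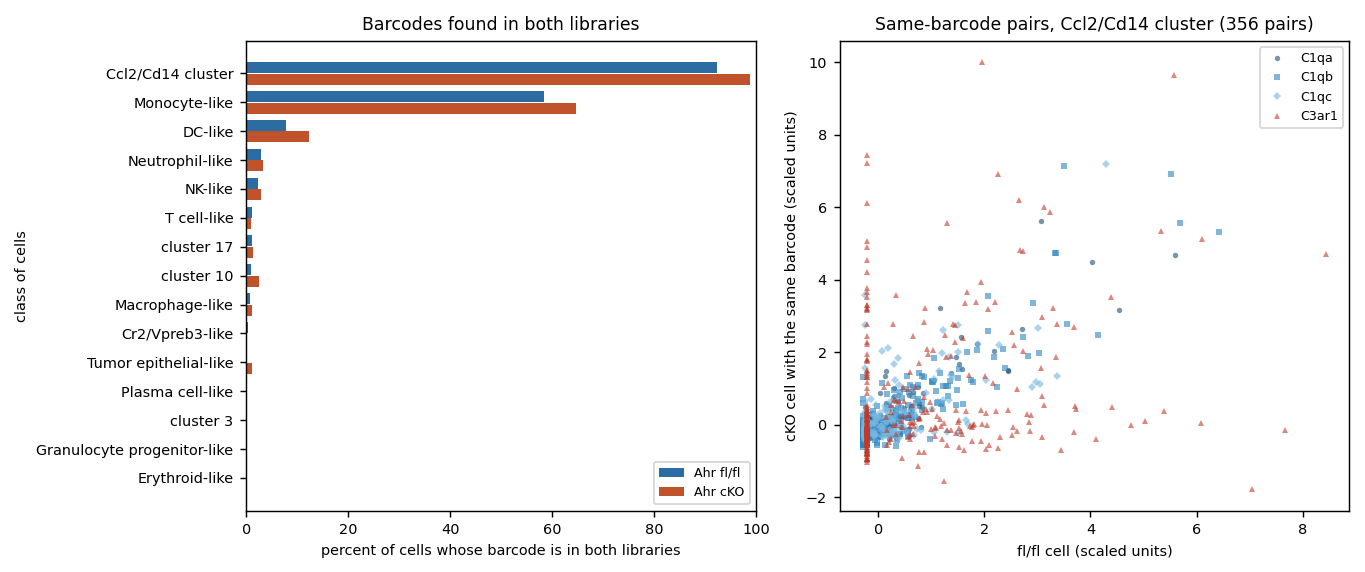
Left, percent of cells of each class (vertical axis) whose barcode is in both libraries, with 1 bar per library. Right, scaled values of the 4 genes in the fl/fl cell (horizontal axis) and the cKO cell (vertical axis) of each of the 356 same-barcode pairs of the Ccl2/Cd14 cluster; the C1q points follow the diagonal and many C3ar1 points do not.

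The members themselves show how alike these pairs were. Over the 356 pairs with both cells in the Ccl2/Cd14 cluster, the fl/fl and cKO values of a barcode correlated at a Pearson r of 0.906 for C1qa, 0.907 for C1qb, 0.689 for C1qc and 0.305 for C3ar1. With each cell set against the next barcode of the cluster instead, r lay between -0.0524 and -0.0146. Over all genes the median correlation in this cluster was 0.483 within a barcode and 0.117 with the next barcode. The most similar cKO cell over all genes was sought among the cKO cells of these 356 pairs only. In 91.6% of the pairs it was the cell with the barcode of the fl/fl cell. Among the cells of 224 Monocyte-like pairs that share was 68.3%. Here r was 0.295 for C1qa, 0.728 for C1qb, 0.227 for C1qc and 0.906 for C3ar1, and with the next barcode r for C1qb was 0.232. The 2 cells of such a barcode cannot be assigned to one genotype from these data, so a difference between libraries in the Ccl2/Cd14 cluster sets largely the same barcodes against each other. What placed these barcodes in both libraries was not tested. The plot of shared barcodes shows both the classes concerned and the paired values.

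In the mouse genome (GRCm38, GENCODE M21) the C1q genes form a block on chromosome 4, all on the minus strand. C1qb lies at chr4:136880129-136886187, C1qc at chr4:136889804-136893065 and C1qa at chr4:136895917-136898803. The block spans 18.7 kb with no other protein-coding gene inside it, and 3616 bases separate C1qb from C1qc and 2851 bases separate C1qc from C1qa. Its flanking protein-coding genes, Ephb2 and Epha8, were not among the 2000 genes. C3ar1 lies at chr6:122847138-122856161, also on the minus strand. Because the C1q genes moved together over Macrophage-like cells while C3ar1 did not (below), the sequences before their starts are shown for comparison. RefSeq promoters (GRCm38.p6) were available for 3 of the 4 genes, C1qb at chr4:136886201-136886450, C1qc at chr4:136893066-136893164 and C3ar1 at chr6:122856162-122856407, and only bases outside the annotated gene are printed. Capitals mark matches to GAGGAA, the core bound by PU.1, a factor that sets the macrophage lineage, or to its reverse complement TTCCTC.
C1qb: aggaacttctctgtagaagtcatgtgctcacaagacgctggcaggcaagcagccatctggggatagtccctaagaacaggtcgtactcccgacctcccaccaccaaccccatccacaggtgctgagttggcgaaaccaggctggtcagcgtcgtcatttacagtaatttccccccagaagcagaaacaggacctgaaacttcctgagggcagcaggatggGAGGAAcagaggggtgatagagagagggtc
C1qc: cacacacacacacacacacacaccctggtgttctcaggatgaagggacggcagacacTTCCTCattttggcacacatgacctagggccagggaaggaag
C3ar1: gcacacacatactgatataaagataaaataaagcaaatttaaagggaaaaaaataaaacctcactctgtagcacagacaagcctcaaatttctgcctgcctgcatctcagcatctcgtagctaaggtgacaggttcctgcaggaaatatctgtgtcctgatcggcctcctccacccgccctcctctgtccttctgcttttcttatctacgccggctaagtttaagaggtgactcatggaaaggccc

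Both strands of the 250 bases before each RefSeq start were searched, and positions are counted from that start. The C1qb promoter held GAGGAA at 30 to 25 bases before the start. The C1qc promoter held TTCCTC at 193 to 188 bases before the start, and the C3ar1 promoter held neither. The RefSeq start of C1qc lies inside the GENCODE gene, so 151 of its 250 bases are not printed. The marked TTCCTC is thus nearer to the GENCODE gene than to the RefSeq start. Of 32851 mouse promoters of the same length, 23.3% held this core, so a match is common. GCGTG, the core of the element bound by AHR, was in 28.2% of all promoters and the interferon-stimulated response element in 2.98%. Neither was in the 3 windows, which says only that these letters are absent from these bases.

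In the fl/fl library all 4 genes were highest in Macrophage-like cells. C1qa was above zero in 73.9% of 533 cells (95% interval 70.0% to 77.6%), C1qb in 80.5%, C1qc in 67.9% and C3ar1 in 45.8%. Their mean scaled values were 1.84 ± 2.26 (SD over cells) for C1qa, 1.93 ± 1.93 for C1qb, 1.77 ± 2.24 for C1qc and 1.16 ± 2.25 for C3ar1. In the 358 Macrophage-like cells of the library labelled Ahr cKO the means were 2.24 ± 2.48, 2.26 ± 2.33, 2.34 ± 2.47 and 0.945 ± 2.22. Leaving out the shared barcodes moved none of the fl/fl means by as much as 0.1, since so few cells of the class had one. Among the 10 leading genes of their larger cluster (474 fl/fl cells) were 3 of the macrophage markers, Arg1, Apoe and Csf1r, and 1 monocyte marker, Fn1. The smaller cluster (59 fl/fl cells), led by Mt1, Arg1 and Mmp12, had 1 macrophage marker among them, Arg1, and 1 marker of another class. Intervals on shares cover counting error only.

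Macrophage-like cells were 10.3% of the fl/fl library. They held 56.2% of all cells above zero for C1qa, 49.4% for C1qb and 58.1% for C1qc, and 80.9%, 72.7% and 78.8% of the summed level above zero. The same class held 52.2% of C3ar1-positive cells and 56.5% of the summed C3ar1 level. Thus the receptor gene was less concentrated there in the summed level than the C1q genes, as a description of these 5196 cells. The Ccl2/Cd14 cluster held 29.5% of the summed C3ar1 level, against 6.69% to 12.0% for the C1q genes. Of its fl/fl cells 362 of 392 had a shared barcode, so the contrast rests in part on barcodes found in both libraries. These shares were not computed without them.

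The Ccl2/Cd14 cluster came second for every member, and here the receptor and the C1q genes parted. Its mean C3ar1 was 0.761 ± 1.63, with 42.6% of 392 fl/fl cells above zero, close to the share in Macrophage-like cells. Its C1q means were far lower, -0.017 ± 0.66 for C1qa, 0.206 ± 1.01 for C1qb and 0.0194 ± 0.663 for C1qc, with 26.5%, 43.4% and 29.3% of cells above zero. Cells of this cluster that were above zero had a median of only 0.268 for C1qa, against 2.07 in Macrophage-like cells. The cluster supplied 35.8% of all C3ar1-positive cells but 14.8% of C1qa-positive cells. Only 30 of its fl/fl cells had a barcode of their own, and in these C1qa was above zero in 23.3% (9.93% to 42.3%) and C3ar1 in 12 cells (22.7% to 59.4%).

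Below these classes the levels lay near the zero level. For C1qa the next means were those of an unnamed cluster of cycling cells led by Ptma and Stmn1 (-0.0816, 14.9% of 281 cells above zero), DC-like cells (-0.153, 8.75%) and Monocyte-like cells (-0.185, 5.97%). For C1qb the same 3 followed in another order, at -0.136 in DC-like, -0.142 in the cycling cluster and -0.151 in Monocyte-like cells, and these neighbours differ by far less than their SDs of 0.51 to 0.674. For C3ar1 Monocyte-like cells came next, at -0.0247 ± 0.993 with 6.72% of cells above zero. Without the shared barcodes 167 fl/fl Monocyte-like cells remained, and the share above zero became 9.58% for C1qa, 17.4% for C1qb, 8.98% for C1qc and 7.78% for C3ar1.

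T cell-like cells, which should lack C1q, give the background: C1qa was above zero in 2.92% of 753 cells, C1qb in 4.12% and C1qc in 2.52%, and C3ar1 in 0.133%. C3ar1 was above zero in no NK-like cell (0 of 170, which allows a share of up to 1.76%) and in no Granulocyte progenitor-like cell (0 of 166, up to 1.81%). These limits are 3 cells of the total and bear on cells with a value above zero, not on cells expressing the gene. The median depth was 106 genes above zero in T cell-like, 108 in NK-like and 93 in Granulocyte progenitor-like cells. In DC-like cells (median 81 genes) the lower bounds of the 3 subunits, 5.80%, 8.35% and 4.70%, lay above the upper bounds in T cell-like cells, 4.39%, 5.79% and 3.91%. In Monocyte-like cells that of C1qb did (9.16% to 15.8% against 2.81% to 5.79%). Without the shared barcodes those of all 3 subunits did, at 5.58%, 11.9% and 5.11% against upper bounds of 4.28%, 5.71% and 3.80% in T cell-like cells. A C1q share at or below that of T cell-like cells is read as background. T cell-like and DC-like fl/fl cells with 2 or 3 subunits above zero also carried Apoe more often, in 72.7% against 6.20% and 65.0% against 16.1% of cells with no subunit. Of 790 Tumor epithelial-like cells, 33 had 2 or 3 subunits above zero, and these had a median of 5 of the 15 macrophage markers above zero against 2 in cells with no subunit. In these 33 cells Apoe was above zero in 81.8%, against 13.8%, and 13 of them were possible doublets by their markers, as were 211 of the 698 cells with no subunit. One resolution 2 cluster of epithelial cells, led by Lgals4 and singled out after its values were seen, was above zero for C1qa in 32.8% and for C1qb in 40.6% of 64 fl/fl cells. The part of doublets or free RNA in these values was not tested.

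**Figure D2:**
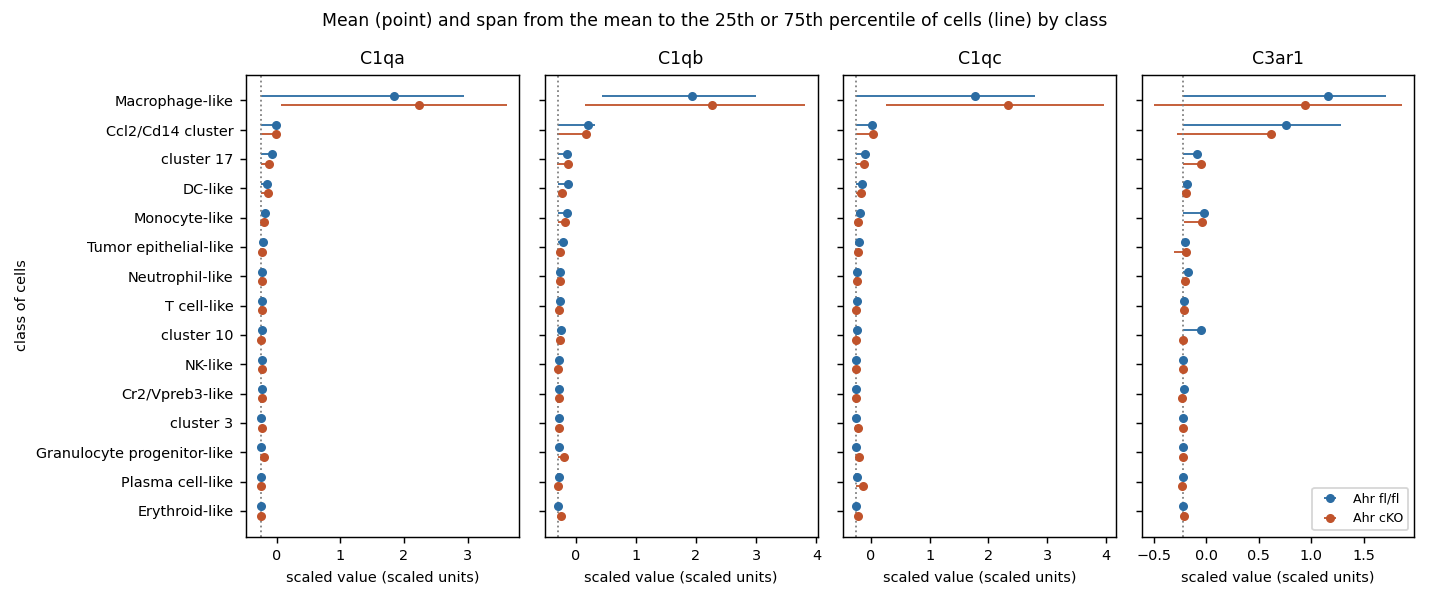
Mean scaled value of each gene (horizontal axis, scaled units) by class of cells (vertical axis) in the fl/fl (blue) and cKO (orange) libraries. Lines run from the mean to the 25th and 75th percentiles of cells where these lie beyond it, and the dotted line is the fl/fl zero level. Cluster 17 is the unnamed cycling cluster, cluster 10 that of hemoglobin and collagen genes and cluster 3 that of Camp and Ngp; Macrophage-like cells are highest for each gene and the Ccl2/Cd14 cluster stands out for C3ar1.

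**Figure D3:**
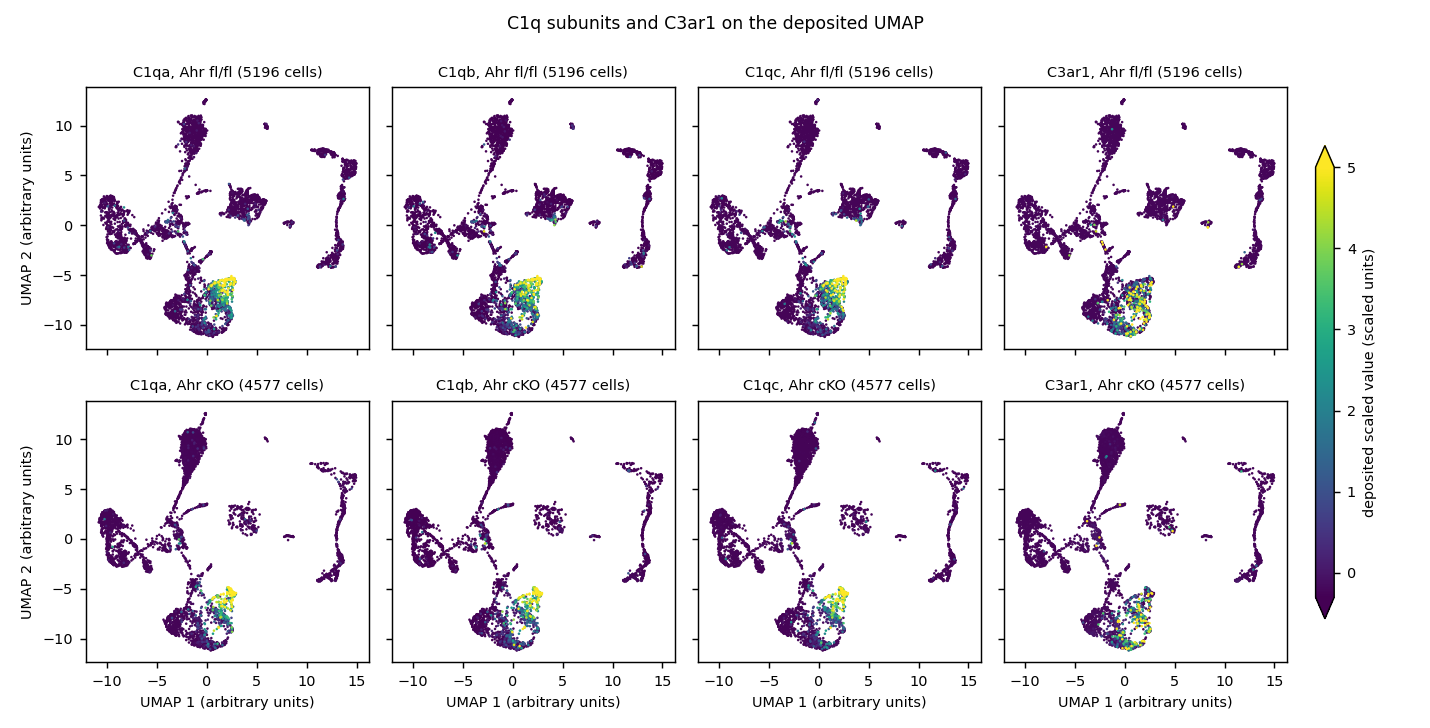
Scaled value (colour, capped at 5) of each gene on the deposited UMAP coordinates (both axes in arbitrary units) for the fl/fl (top) and cKO (bottom) libraries, 1 point per cell. High C1q values fill one end of the phagocyte group at the bottom of the map, while high C3ar1 values are spread through it.

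The phagocytes were then resolved further, by clustering at resolution 2, into 7 clusters with macrophage or monocyte scores. C1q followed a steep order over them. It was highest in a cluster led by Apoe, Ms4a7, Lgmn and Selenop, genes of resident-type macrophages, with fl/fl means of 4.46 ± 2.43 for C1qa, 3.95 ± 1.92 for C1qb and 4.32 ± 2.48 for C1qc over 95 cells. In that cluster 95.8% of cells were above zero for C1qa, 98.9% for C1qb and 96.8% for C1qc. A cluster led by Aif1, Ctsc and Ly6i with Cxcl9 (192 cells, C1qa 1.40 ± 1.90) and one led by Arg1 and Fn1 (190 cells, C1qa 1.34 ± 1.76) came next. Their means lay closer together than the SD over cells, which is a spread of cells and not an error of a mean. A cluster led by Gpnmb, Ero1l, Mt1 and Nos2, with genes of hypoxia, had a C1qa mean of 0.335 ± 0.901 over 83 cells. In a cluster led by Lyz2, Ms4a6c and Clec4a3, genes of monocytes, C1qa was at -0.241 ± 0.0903 and above zero in 1.92% of 313 cells, no more than in T cell-like cells. C1qb was at -0.261 ± 0.132 there and above zero in at least 5% of cells, against 4.12% (up to 5.79%) of T cell-like cells. C1qc stayed under 5%.

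C3ar1 followed another order over the same clusters. Its mean was 1.50 ± 2.15 in the Arg1/Fn1 cluster, where 61.6% of cells were above zero, and 1.35 ± 2.67 in the Gpnmb/Ero1l cluster. In the library labelled Ahr cKO these 2 clusters had the other order, 1.42 and 1.50. In the Apoe/Ms4a7 cluster, where C1q was highest, C3ar1 was 0.945 ± 1.85 with 44.2% of cells above zero. It was 0.848 ± 1.65 in the cluster led by Vim, Ccl2 and Cd14 and 0.805 ± 2.27 in the Aif1/Ctsc/Ly6i cluster. The cluster led by Fam26f and Cxcl10, interferon-induced genes, had 0.471 ± 1.85 and the Lyz2/Ms4a6c cluster -0.158 ± 0.366. Leaving out the Lyz2/Ms4a6c cluster, whose own SD was small, the C3ar1 means lay within 1 SD over cells of each other. That SD is no error of a mean, so it does not show whether the clusters differ. The clusters also differed in depth, with fl/fl medians of 260.5 genes above zero in the Arg1/Fn1, 174 in the Apoe/Ms4a7, 162 in the Vim/Ccl2/Cd14, 140 in the Fam26f/Cxcl10, 119 in the Lyz2/Ms4a6c, 109 in the Gpnmb/Ero1l and 84.5 in the Aif1/Ctsc/Ly6i cluster. The part of depth in the order of C3ar1 was not tested.

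Shared barcodes touched these clusters unevenly. There were none in either library in the Apoe/Ms4a7 and Arg1/Fn1 clusters, and 2 fl/fl and 3 cKO cells in the Aif1/Ctsc/Ly6i cluster. In the Vim/Ccl2/Cd14 cluster 302 of 317 fl/fl cells had one, in the Gpnmb/Ero1l cluster 23 of 83, in the Fam26f/Cxcl10 cluster 51 of 103 and in the Lyz2/Ms4a6c cluster 197 of 313. Without them the Gpnmb/Ero1l cluster kept 60 fl/fl cells with a mean of 0.559 for C1qa and 1.51 for C3ar1. The Lyz2/Ms4a6c cluster kept 116 fl/fl cells, with means of -0.241 and -0.151.

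**Figure D4:**
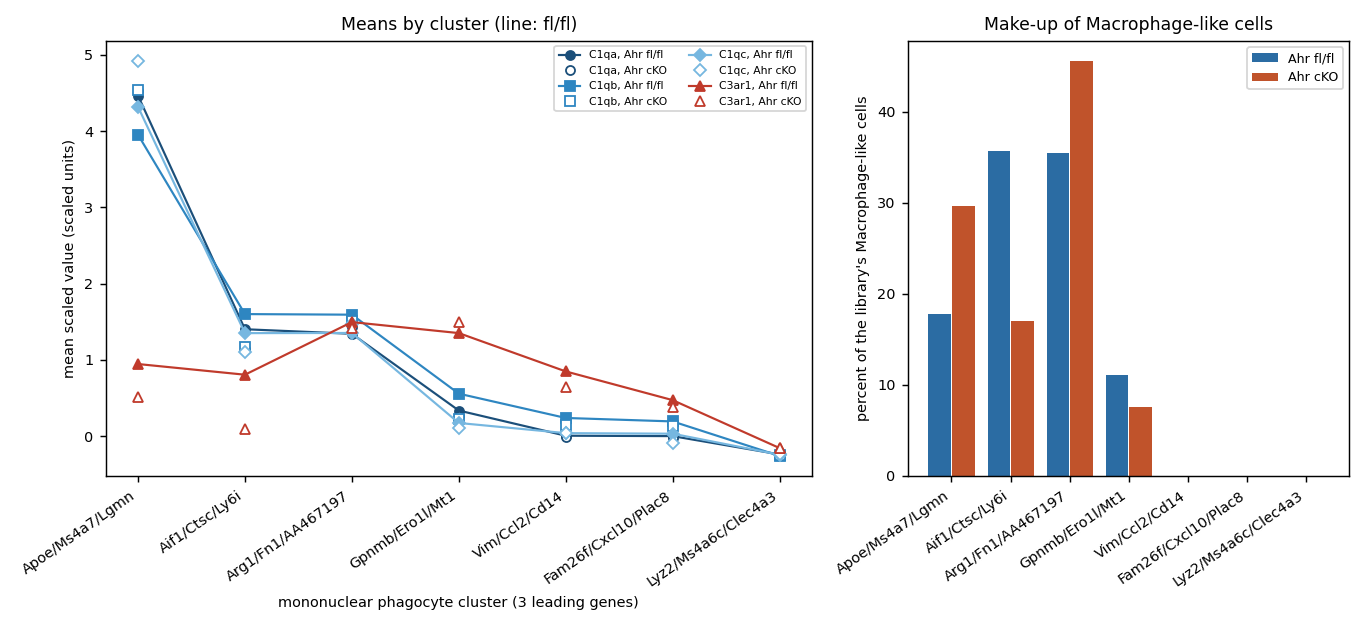
Left, mean scaled value of each gene (vertical axis, scaled units) in 7 phagocyte clusters at resolution 2, named by their 3 leading genes, with filled symbols and lines for fl/fl and open symbols for cKO. Right, percent of each library's Macrophage-like cells in each cluster; C1q is highest at the left, level over the next 2 clusters and lower after them, while C3ar1 is highest at the Arg1/Fn1 cluster in the fl/fl library (1.50) and at the Gpnmb/Ero1l cluster in the cKO library (1.50), and the Apoe/Ms4a7 cluster takes 17.8% of fl/fl and 29.6% of cKO Macrophage-like cells.

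The 3 C1q chains assemble into one protein, and their genes were found together in single cells. Of 533 fl/fl Macrophage-like cells, 320 (60.0%, 55.7% to 64.2%) had all 3 subunits above zero, 83 had 2, 59 had 1 and 71 had none. In T cell-like cells 1 of 753 had all 3. The share with 3 subunits was 20.7% of 392 cells in the Ccl2/Cd14 cluster, 4.71% of 297 DC-like cells and 2.99% of 402 Monocyte-like cells. Where 2 subunits were above zero in a Macrophage-like cell, the missing one was C1qc in 48 of 83 cells, C1qa in 29 and C1qb in 6. Where there was only 1, it was C1qb in 32 of 59 cells. Of the subunits, C1qb was thus detected most often and C1qc least often.

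Detection of the subunits moved with the number of genes read in a cell. In the tercile of Macrophage-like cells with the fewest genes above zero (median 65.5 genes) 37.6% had all 3 subunits, against 61.4% in the middle tercile and 81.0% in the highest (median 308 genes). The gradient was steeper for C3ar1, above zero in 12.9%, 38.6% and 85.5% of the same terciles, than for C1qb, above zero in 74.7%, 79.5% and 87.2%. Cells with none of the subunits were above zero for C3ar1 in 45.1% of 71 cells, cells with 1 or 2 in 27.5% of 142 cells and cells with all 3 in 54.1% of 320 cells, with medians of 142, 74.5 and 226 genes above zero. In the Ccl2/Cd14 cluster these shares were 35.4% of 212, 38.4% of 99 and 66.7% of 81 cells. In Monocyte-like cells they were 4.91% of 346, 11.4% of 44 and 41.7% of 12 cells. The part of depth in these shares was not tested.

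**Figure D5:**
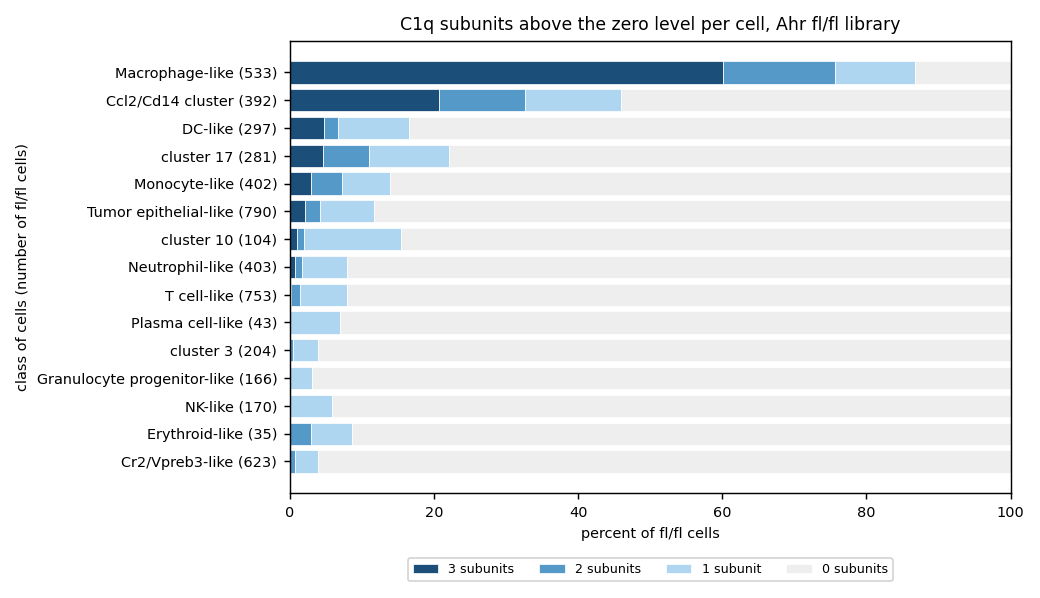
Percent of fl/fl cells of each class (vertical axis, with the number of cells) that had 3, 2, 1 or 0 of the genes C1qa, C1qb and C1qc above the zero level (horizontal axis). The part with 3 subunits is 60.0% in Macrophage-like cells and 20.7% in the Ccl2/Cd14 cluster.

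Within Macrophage-like cells the subunits rose and fell together and apart from the receptor. Over 533 fl/fl cells, which share a library and differ in depth, Spearman's rho was 0.71 for C1qa with C1qb, 0.654 for C1qa with C1qc and 0.631 for C1qb with C1qc. C3ar1 had a rho of 0.0235 with C1qa, -0.0571 with C1qb and 0.0512 with C1qc. Over 358 cKO cells the subunits had rho values of 0.794, 0.78 and 0.826, and C3ar1 had -0.146, -0.157 and -0.118 with them. The cKO values had been moved, and rho between genes rarely above zero was also high there. The mean of the subunits had a cKO rho of 0.324 with Cr2, above zero in no fl/fl Macrophage-like cell. With C1ra it was 0.507, against 0.12 in the fl/fl library. The cKO rho values are therefore no check on the fl/fl ones. Over the means of 21 clusters with at least 50 fl/fl cells, Pearson's r between subunits was 0.981 to 0.994, and with C3ar1 it was 0.70 to 0.821. In the 392 fl/fl cells of the Ccl2/Cd14 cluster C3ar1 had a weak positive rho with the subunits. It was 0.155 with C1qa, 0.113 with C1qb and 0.112 with C1qc.

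By a fixed rule the genes most like each member were named. Over the 21 cluster means C1qa was most like Apoe, the lipid carrier of macrophages (r = 0.953), Tlr12 (0.941), Ms4a7 (0.939), the chemokine gene Ccl8 (0.915) and Gbp2b (0.907). The same Apoe, Ms4a7 and Tlr12 were among the 5 closest to C1qb and C1qc, and Sdc3 and Tbxas1 completed the list of C1qb. C3ar1 was most like Fcgr2b, the inhibitory Fc receptor (0.975), Lgmn, a lysosomal protease (0.974), Dab2 (0.961), the scavenger receptor gene Msr1 (0.949) and Sdc3 (0.939). Over single Macrophage-like cells of the fl/fl library the closest genes to C1qa, of 694 compared, were Apoe (rho = 0.472), Ms4a7 (0.454), the MHC class II gene H2-Aa (0.397), Ccl8 (0.386) and H2-Eb1 (0.384). H2-Ab1 was close to C1qb (0.411) and C1qc (0.391). The lowest values for each subunit were with S100a6, Plac8 and Anxa2, from -0.332 to -0.232.

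C3ar1 was closest over single cells to Lrp1, a receptor for dying cells and proteases (0.392), Fcgr1, the high-affinity Fc receptor (0.378), Pid1 (0.377), Dab2 (0.367) and Eps8 (0.346). Its lowest values were with Cxcl9 (-0.146), AW112010 (-0.119) and Rps2 (-0.0784). C3ar1 also had a rho of 0.455 with the number of genes above zero in a cell, against 0.0448 to 0.188 for the C1q genes, and its likeness to other genes shares that relation to depth.

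Lists of macrophage genes were set beside C1q. They were drawn up with the tumor's macrophages in view and their genes were used in the clustering, so the sign of a list that names C1q-bearing macrophages is no independent evidence. Of 19 detected genes known from resident-type and C1q-bearing macrophages, 17 had a positive rho with the mean of the subunits in fl/fl Macrophage-like cells, with a median of 0.183. Over all 694 genes 418 were positive, with a median of 0.0217. The largest values were with Apoe (0.496), Ms4a7 (0.476), Cd81 (0.379), Vcam1, an adhesion receptor (0.325), Selenop (0.317) and Aif1 (0.314). Of 20 genes known from monocytes and recently derived or hypoxic macrophages, 19 were negative, with a median of -0.173, against 276 of 694 genes overall. S100a6 (-0.355), Plac8 (-0.353), Chil3 (-0.233), Fn1 (-0.225), Hilpda (-0.204) and Arg1 (-0.196) were lowest. All 5 MHC class II genes were positive, led by H2-Eb1 (0.463), H2-Aa (0.456) and H2-Ab1 (0.444).

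For C3ar1 the lists did not separate in this way. All 20 genes of the monocyte and hypoxia list and 17 of the 19 resident-type genes had a positive rho with it, but so had 672 of all 694 genes. Of the 5 MHC class II genes 2 were positive, with a median of -0.034. Among 5 detected genes of the uptake of dying cells, C1q was positive with Abca1, a lipid exporter (0.217), Axl (0.183) and Stab1 (0.116), and negative with Lrp1 (-0.117) and Cd36 (-0.0349). C3ar1 was positive with all 5.

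Few other complement genes were measured, and most had their highest mean outside macrophages. Of the components, 5 of 24 listed genes were in the table. C1ra and C1s1, which encode the proteases that C1q carries, were highest in an unnamed cluster led by hemoglobin and collagen genes, above zero in 21.2% and 32.7% of its 104 fl/fl cells. In Macrophage-like cells they were above zero in 2.81% and 0.563% of cells. C3, the source of C3a, was above zero in 40.4% of that cluster, 49.0% of an unnamed cluster led by the granule genes Camp and Ngp, 40.8% of Monocyte-like cells and 35.5% of Macrophage-like cells. C4b was above zero in 17.3% of the hemoglobin and collagen cluster and in 8.82% of Macrophage-like cells. At resolution 2 hemoglobin and collagen genes led separate clusters, an Erythroid-like one (49 fl/fl cells) and a Fibroblast-like one (55 fl/fl cells). The complement genes were not counted in these apart. Shares in the hemoglobin and collagen cluster are thus those of a mixture and assign a gene to neither cell type. Fcnb, a ficolin gene of granulocytes, had its highest fl/fl mean in Granulocyte progenitor-like cells (45.8% above zero), with 46.6% above zero in the Camp and Ngp cluster, and was above zero in 0.75% of Macrophage-like cells. In the library labelled Ahr cKO the mean of Fcnb was higher in the Camp and Ngp cluster (3.42) than in Granulocyte progenitor-like cells (1.09).

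Of receptors and C1q-binding proteins, 6 of 15 listed genes were measured. Lrp1 and Lair1, an inhibitory receptor that binds collagens and C1q, were highest in Macrophage-like cells, with fl/fl means of 0.818 and 0.977 and 44.8% and 48.2% of cells above zero. Itgax, a subunit of complement receptor CR4, had its highest mean in DC-like cells (0.594, against 0.446 in Macrophage-like cells). Calr, which encodes calreticulin, and C1qbp had their highest means in Granulocyte progenitor-like cells (1.07) and in the cycling cluster (0.595). Cr2, a complement receptor of B cells, was above zero in 33.2% of Cr2/Vpreb3-like cells and in 0 of 533 Macrophage-like cells (up to 0.563%). Among the regulators, Clu was above zero in 87.2% of Tumor epithelial-like cells and Serping1, encoding the C1 inhibitor, in 33.7% of the hemoglobin and collagen cluster.

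Between the libraries, Macrophage-like cells of the library labelled Ahr cKO had higher C1q and lower C3ar1 means. The difference, cKO minus fl/fl, was 0.398 for C1qa, 0.337 for C1qb, 0.561 for C1qc and -0.216 for C3ar1, in scaled units, each less than the SD over cells. For C3ar1 the 25th percentile of these cKO cells was -0.498, below the fl/fl zero level of -0.218, under which no fl/fl cell lies. The 75th percentile was 1.87 in the cKO and 1.71 in the fl/fl library. The part of the moved values in the lower C3ar1 mean was not tested. At a difference of 0.1 or more, 3 of the 4 members were higher and 1 was lower, where 17.7% of 694 genes were higher and 8.79% lower, with a median over all genes of 0.00911. C1qc had the highest scaled difference of all 694 genes, C1qa was 12th and C1qb 21st from the top, and C3ar1 was 7th from the bottom. The unit is each gene's own SD, so neither these ranks nor the limit of 0.1 compare genes on a common scale. A high rank thus does not make a gene the most changed one. Without the shared barcodes the values were 0.405, 0.351, 0.577 and -0.216, with 18.4% of 692 genes higher and 8.96% lower. The C1q differences depended on how the class was drawn. They were 0.806, 0.733 and 1.02 in 354 fl/fl and 221 cKO cells clustered anew without shared barcodes. At resolution 2, where only the Apoe/Ms4a7 and Gpnmb/Ero1l clusters kept the Macrophage-like name, they were 0.579, 0.747 and 0.954. With 15 principal components they were 0.471, 0.382 and 0.599, and with the members in the clustering 0.417, 0.345 and 0.568. The mean and the median over cells parted for 2 members: the difference of medians was -0.0518 for C1qb and 0.191 for C3ar1. With 1 library per genotype these values compare the libraries and not the genotypes.

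The make-up of the class differed along with the C1q means. The Apoe/Ms4a7 cluster held 17.8% of fl/fl and 29.6% of cKO Macrophage-like cells, and the Aif1/Ctsc/Ly6i cluster 35.6% and 17.0%. The Arg1/Fn1 cluster held 35.5% and 45.5%, and the Gpnmb/Ero1l cluster 11.1% and 7.54%. When each of these clusters was given its fl/fl share, the difference was -0.0404 for C1qa, -0.113 for C1qb, 0.0487 for C1qc and -0.337 for C3ar1, and no subunit was higher by 0.1. With subclusters drawn from the deposited UMAP coordinates and weighted the same way, the differences were 0.0431, -0.033, 0.146 and -0.159. These subclusters are built from genes that go with C1q, and pooled tumors of 3 mice give no error for a share.

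Within the clusters the members did not move alike. In the Apoe/Ms4a7 cluster (95 fl/fl and 106 cKO cells) C1qa differed by 0.0567, C1qb by 0.584, C1qc by 0.609 and C3ar1 by -0.434, with 20.8% of 720 genes higher and 24.4% lower. The median cKO value of C3ar1 there was -0.377 and the 25th percentile -0.802, below the fl/fl zero level of -0.218, under which no fl/fl cell lies. In the Aif1/Ctsc/Ly6i cluster (192 and 62 cells) all 4 were lower in the library labelled Ahr cKO, by -0.26, -0.431, -0.253 and -0.713, with 28.5% of 600 genes higher and 27.2% lower. Without shared barcodes these became -0.252, -0.403, -0.238 and -0.788, with 28.2% of 595 genes higher and 28.1% lower. In the Arg1/Fn1 cluster (190 and 163 cells) C1qa, C1qb and C3ar1 differed by 0.092, -0.0846 and -0.0779 and only C1qc passed 0.1, at 0.119, with 17.6% of 735 genes higher and 12.5% lower. In the Gpnmb/Ero1l cluster (83 and 52 cells) C1qb was at -0.335 and C3ar1 at 0.146, with 23.0% of 491 genes lower and 28.1% higher. Of these cells 23 fl/fl and 26 cKO cells had a shared barcode, and the 60 and 26 left were too few in the cKO library for a difference.

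In Monocyte-like cells none of the 4 reached 0.1 in either direction (-0.0337 to -0.0126), where 9.59% of 563 genes were higher and 3.37% lower. Without shared barcodes C1qb was at -0.13 over 167 and 126 cells, with 16.2% of 613 genes higher and 12.9% lower. In DC-like cells C1qb was at -0.0956 and C1qa and C1qc at 0.00537 and -0.0245, with 21.4% of 641 genes higher and 12.3% lower. In the Ccl2/Cd14 cluster C3ar1 was at -0.146, with 8.01% of 649 genes higher and 5.55% lower, and the C1q genes between -0.0362 and 0.0145. Without shared barcodes that cluster kept 30 fl/fl and 4 cKO cells, and no difference is given for it.

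Other complement genes in Macrophage-like cells were set beside the members. Of 5 measured components C4b was lower, by -0.204, and C3 differed by 0.0359. Of 6 measured receptors and C1q-binding proteins 3 were higher, Lrp1 by 0.196, C1qbp by 0.141 and Lair1 by 0.106. Of all 2000 measured genes 8.15% were higher and 3.85% lower. Of 21 measured resident-type macrophage genes 15 were higher and 1 was lower, with a median of 0.211. Among the 19 of them that passed the 5% detection minimum, 13 were higher and 1 was lower, with a median of 0.17. Of all 694 genes that passed this minimum, 17.7% were higher and 8.79% lower, so shares among detected genes are to be read beside these. Of 22 measured monocyte and hypoxia genes 5 were higher and 3 lower, with a median of 0.0136. Among the 20 of these that passed the minimum the counts were also 5 and 3, with a median of 0.0248. Of 7 measured genes of the uptake of dying cells 5 were higher, where Axl, Gas6 and Stab1 are in the resident-type list too, and of 5 MHC class II genes 3. The median was 0.000403 over all 2000 genes and 0.00911 over the 694 detected ones. The higher resident-type genes include those that lead the Apoe/Ms4a7 cluster, whose share differed between the libraries.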

How the data were processed

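Single-cell RNA profiles of 2 libraries, 1 per genotype, were deposited by the authors as scaled values (a score) of 2000 genes in every cell, beside UMAP coordinates, a second kind of score. The submitters' processing notes name Cell Ranger 3.0.0, Seurat 3.1.4 and the build mm10 (GRCm38), with no role or order; no doublet removal is stated. The scaling removes counts, so depth per cell is known only as genes above zero.

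Cells were clustered from 30 principal components without the 4 members, with 15 neighbours and the Leiden method at resolution 1 (scanpy 1.11.5, igraph 0.11.9, Python 3.11.15, numpy 2.4.6, scikit-learn 1.9.0). A cluster took a class name at a marker score of at least 0.5, a next class under 0.5 times that and at least 3 markers, unless markers of another class outnumbered its own among its 10 leading genes. Classes needed 50 cells per library for a difference, genes 5% of fl/fl cells above zero, and 0.1 counted as higher or lower. Shares carry exact Clopper-Pearson 95% intervals (scipy 1.17.1). Possible doublets (at least 3 markers from each of 2 families) were 7.45% of fl/fl and 3.36% of cKO cells and were kept. Named genes were the members, the measured complement genes apart from a gene not reported here, for each member the 5 most alike over cluster means and the 5 highest and 3 lowest over fl/fl Macrophage-like cells, and up to 6 of each other list. Members and lists were chosen with earlier results of these data known.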

Additional observations from a re-analysis of the deposited data

How the results depend on the processing

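The alternatives changed the clustering, the cells, the zero level, the summary or the weighting, and leaving out shared barcodes was chosen after seeing the data. Of 229 values under an alternative 178 moved by under 0.1 without crossing the 0.1 taken as higher or lower, or, for shares, stayed within the exact interval. Among these, some differences under 0.1 changed sign. The total includes Monocyte-like and DC-like differences that were under 0.1 from the start. It also includes alternatives that kept 528 or 529 of the 533 fl/fl Macrophage-like cells. It is therefore no measure of how firm the Macrophage-like differences are.

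At resolution 2 only the Apoe/Ms4a7 and Gpnmb/Ero1l clusters kept the Macrophage-like name: shares above zero were 69.1% (C1qa), 74.2% (C1qb) and 63.5% (C1qc), means 2.54, 2.37 and 2.38, differences 0.579, 0.747 and 0.954, and subunit rho 0.845, 0.815 and 0.809. Clustered anew without shared barcodes (354 fl/fl and 221 cKO cells), means were 2.33, 2.31, 2.19 and 0.864 (C3ar1), shares 72.03% (C1qc) and 38.4% (C3ar1), differences 0.806, 0.733 and 1.02, the rho of C3ar1 0.124 with C1qa and 0.137 with C1qc, and Monocyte-like C3ar1 differed by -0.107. Removing shared barcodes alone put Monocyte-like C1qb at -0.13.

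At 1 unit above zero or more, shares were 59.5%, 69.2%, 58.2% and 37.3%, and 43.9% of cells had 3 subunits. Medians gave Macrophage-like differences of -0.0518 (C1qb), 0.347 (C1qc) and 0.191 (C3ar1, reversed), and 0.00983 for DC-like C1qb. With resolution 2 clusters weighted as fl/fl, differences were -0.0404, -0.113 (reversed), 0.0487 and -0.337, and with UMAP subclusters 0.0431, -0.033 and 0.146. Removing the local cKO zero level put DC-like C1qb at -0.101; it could not be run for Macrophage-like cells, where members passed 40%.

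By terciles of genes above zero, subunit rho was 0.578, 0.484 and 0.444 in the lowest and 0.89, 0.879 and 0.869 in the highest tercile, and in the middle tercile C3ar1 had -0.0879, -0.209 and -0.154 with C1qa, C1qb and C1qc. No paired analysis was possible because each genotype has 1 library. Detection of C3ar1 ran from 12.9% to 85.5% over these terciles, and depth and level cannot be told apart. No leave-one-out of libraries exists.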
